A study of Homo sapiens with 7 samples.

Results

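The clustered protocadherin genes lie in 3 neighbouring arrays on human chromosome 5, called alpha, beta and gamma. All regions of the deposited H3K4me3 table that overlap chr5:140160000-140395000 (alpha), chr5:140425000-140630000 (beta) or chr5:140705000-140895000 (gamma) of hg19 were taken, which gave 12 of 30840 regions, 5 in alpha, 1 in beta and 6 in gamma. The assay was chromatin immunoprecipitation with sequencing (ChIP-seq) for H3K4me3, a histone H3 methylation found at promoters in use, and the cells were of the human colon cancer line HCT116. All cells carried the genotype KDM5A-/- from 1 knockout line and so lacked KDM5A, a demethylase that removes this mark. At 24 h after transfection they were fixed, and the plasmid was an empty vector or carried KDM5A in its wild-type or a mutant form. By its title the study deals with SMYD2, a methyltransferase that acts on KDM5A, and the sources used here give neither the residues that the mutant changes nor the share of cells transfected.

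Clustered protocadherins are cell adhesion proteins of the cadherin superfamily, best known from neurons, where each cell uses a small choice of the variable promoters and so gains a surface identity. Alpha and gamma genes each join an own variable first exon to constant exons shared by the whole array, while each beta gene stands alone. In colon and other cancers the arrays are known as a stretch that can be silenced together with dense DNA methylation.

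Each group had 1 H3K4me3 library, so no difference below has a replicate check or a p-value, and every interval is a 95% interval that covers counting error only. The values are RPM, that is reads per 1000000 reads of the library. Total reads were inferred from the step between RPM values, taking 1 step as 1 read. They were 10713021 in the empty vector library, 10852411 in the wild-type KDM5A library and 9906508 in the mutant KDM5A library. The listed regions held 67.0%, 60.7% and 56.9% of these reads in the same order. The table was searched for regions with under 1 RPM with the empty vector and over 5 RPM with both forms of KDM5A. All 19 found lay at chr12:394565-493388, on the chromosome of the KDM5A gene. Their sums were 4.01, 392 and 482 RPM in the same order, which the limits of the search set in part. The search treated both forms of KDM5A alike, so it cannot tell the wild-type library from the mutant one. Whether these reads came from the plasmid or from marked chromatin was not tested.

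The RefSeq gene table (GRCh38.p14) holds all 53 genes of a fixed list of clustered protocadherins, 15 alpha, 16 beta and 22 gamma genes. The 15 alpha genes share 1 end position and the 22 gamma genes share 1, while the 16 beta genes have 16 different ends. In gene order SLC25A2 and TAF7 lie between beta and gamma, no protein-coding gene lies between alpha and beta, and HARS2 and ZMAT2 precede alpha while DIAPH1 and HDAC3 follow gamma. The table is of another build than the regions, so no region was tied to a single gene.

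RefSeq promoter sequences (GRCh38.p14, from 250 bases before to 50 after the gene start) were present for 47 of the 53 genes. The arrays hold promoters of 2 kinds, and the sequences below are shown because H3K4me3 is known to favour promoters rich in C, G and CpG. The 4 C-type promoters matched, PCDHAC1, PCDHAC2, PCDHGC3 and PCDHGC4, had 59.0% to 66.0% G and C and 15 to 27 CpG. The other 43 had 32.3% to 51.3% G and C and 2 to 16 CpG, with a median of 7, against a median of 14 over all 35116 promoters of the table. The CpG ranges of the 2 kinds thus overlap. Relative to the number expected from their C and G content, the median CpG count was 0.589 in the 43 and 0.765 in the C-type promoters. Over all promoters it was 0.579, so by that measure the 43 were not poorer in CpG. Each line gives the 150 bases before the gene start on the plus strand of chromosome 5, 5′ to 3′. PCDHA1 is the first gene of alpha, PCDHB1 and PCDHB15 are the first and last of beta, and PCDHGA1 is the first of gamma. PCDHA13, PCDHGA12 and PCDHGC5 are named only. Capitals mark CGCT or AGCG, the same letters on the other strand, and TATAAA on either strand, which none of these stretches holds. CGCT is the core of a sequence element known from many clustered protocadherin promoters, though not from each of them. A match of these letters alone does not show that a promoter holds the element.
PCDHA1: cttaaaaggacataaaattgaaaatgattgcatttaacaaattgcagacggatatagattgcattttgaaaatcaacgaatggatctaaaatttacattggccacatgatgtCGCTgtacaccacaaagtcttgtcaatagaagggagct
PCDHAC1: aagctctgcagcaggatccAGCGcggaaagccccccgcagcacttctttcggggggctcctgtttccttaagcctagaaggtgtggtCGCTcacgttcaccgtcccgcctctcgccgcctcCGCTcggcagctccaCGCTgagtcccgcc
PCDHAC2: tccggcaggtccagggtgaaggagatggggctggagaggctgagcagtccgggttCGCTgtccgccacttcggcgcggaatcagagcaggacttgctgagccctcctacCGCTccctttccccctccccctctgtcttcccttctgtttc
PCDHB1: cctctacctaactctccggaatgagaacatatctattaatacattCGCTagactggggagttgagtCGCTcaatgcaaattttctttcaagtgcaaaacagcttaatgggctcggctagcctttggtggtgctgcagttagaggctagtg
PCDHB15: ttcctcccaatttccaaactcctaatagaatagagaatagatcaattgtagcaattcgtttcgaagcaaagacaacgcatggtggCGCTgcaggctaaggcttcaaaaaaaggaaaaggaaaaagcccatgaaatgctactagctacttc
PCDHGA1: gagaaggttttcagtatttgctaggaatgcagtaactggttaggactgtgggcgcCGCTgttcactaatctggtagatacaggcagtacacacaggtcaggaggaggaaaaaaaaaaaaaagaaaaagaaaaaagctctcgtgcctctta
PCDHGC3: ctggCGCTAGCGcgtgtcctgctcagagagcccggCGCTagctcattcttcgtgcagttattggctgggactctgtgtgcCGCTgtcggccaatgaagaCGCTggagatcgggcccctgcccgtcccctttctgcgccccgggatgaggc
PCDHGC4: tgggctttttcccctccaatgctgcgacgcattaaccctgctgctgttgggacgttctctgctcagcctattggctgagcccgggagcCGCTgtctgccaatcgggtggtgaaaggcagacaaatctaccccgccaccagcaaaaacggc

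Over the whole 300 bases CGCT stood on either strand in 46 of the 47 promoters (97.9%) and in 70.0% of all promoters. On the gene's own strand it stood in the same number, 46 (97.9%), against 54.3% of all. TATAAA stood on either strand in 6 (12.8%) against 11.5% of all, and GGGCGG, a G/C box, in 1 (2.13%) against 44.95% of all. A match is a description of letters and not a bound site.

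H3K4me3 was sparser in the 3 windows than in the megabase on each side, and it differed between the windows. The order was the same in every library, with alpha highest, gamma lower and beta nearly empty. With the empty vector the alpha regions summed to 55.4 RPM (51.1 to 60.1), the gamma regions to 17.8 RPM (15.4 to 20.5) and the 1 beta region had 0.653 RPM (0.263 to 1.35). With wild-type KDM5A the sums were 49.2 RPM (45.1 to 53.6) for alpha, 17.2 RPM (14.8 to 19.9) for gamma and 0.921 RPM (0.442 to 1.69) for beta. With mutant KDM5A they were 45.6 RPM (41.5 to 50.03) for alpha and 14.03 RPM (11.8 to 16.6) for gamma, and the beta region had 0 reads. Per kb of window alpha held 2.51 times as much as gamma in the empty vector library (2.13 to 2.98), 2.31 times in the wild-type library (1.95 to 2.74) and 2.63 times in the mutant library (2.17 to 3.20).

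**Figure D1:**
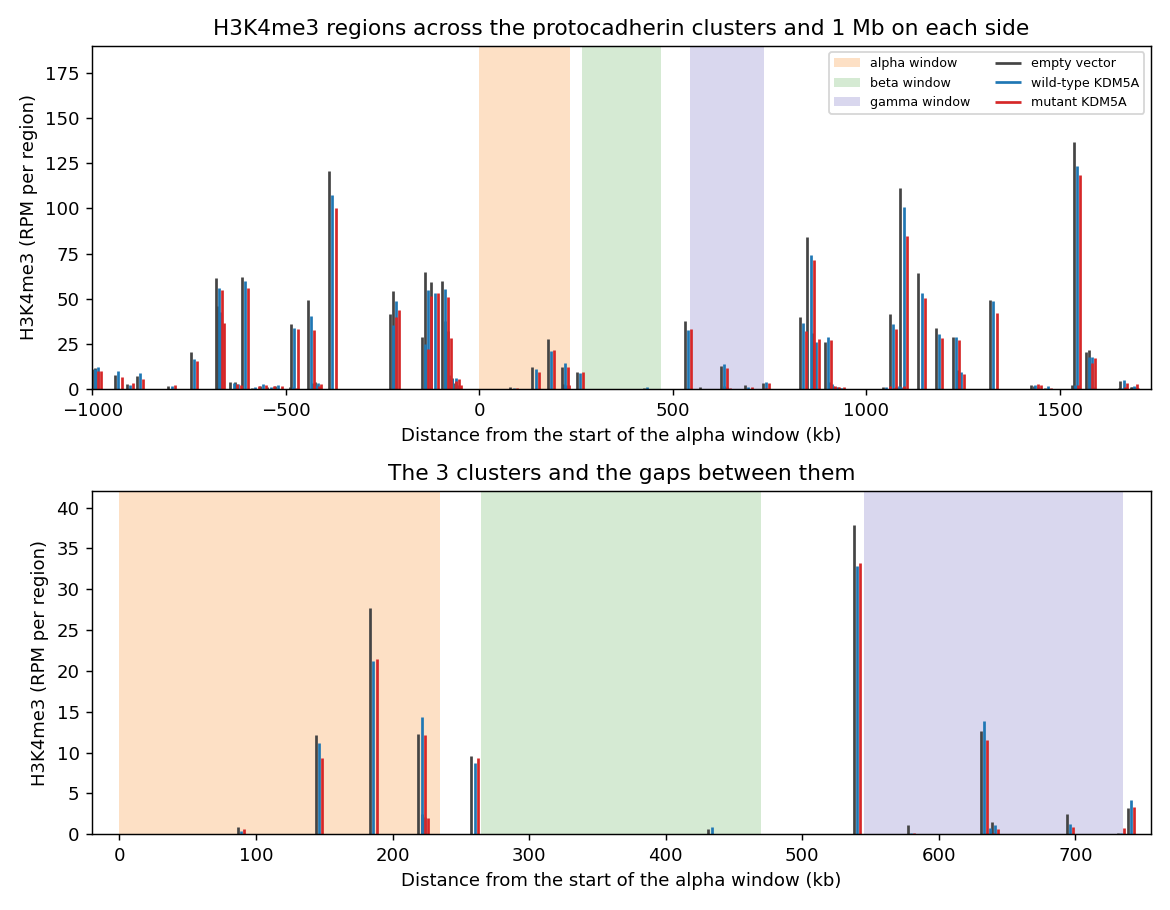
H3K4me3 in RPM per region (vertical lines, 1 per library) against the distance in kb from the start of the alpha window, over the clusters with 1 Mb on each side (top) and over the clusters alone (bottom), with the windows shaded. The tallest line inside a window is 27.7 RPM in alpha, while the flanks reach 137 RPM, and the beta window holds 1 region of under 1 RPM.

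Alpha was marked mainly in the distal part of its window of 235 kb. The first 88.7 kb of its window held no listed region, and 4 of its 5 regions began 145 to 223 kb from its start. The regions are numbered here within each window in genome order. Alpha 3, at chr5:140345197-140346762 and 1566 bp wide, was the strongest of the 12, with 27.7 RPM in the empty vector library, 21.2 RPM in the wild-type KDM5A library and 21.5 RPM in the mutant KDM5A library. It made up 50.0%, 43.1% and 47.1% of the alpha sum in these libraries, and its mean of 23.5 RPM lay at the 66.5th percentile of all regions of the table. Both KDM5A libraries were below the empty vector library and close to each other.

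Alpha 2, at chr5:140305460-140306692 and 1233 bp wide, had 12.1 RPM in the empty vector library, 11.1 RPM in the wild-type KDM5A library and 9.39 RPM in the mutant KDM5A library. Alpha 4, at chr5:140380395-140382047 and with 1653 bp the widest of the 12, had 12.2, 14.4 and 12.1 RPM in that order. Alpha 2 was thus highest with the empty vector and alpha 4 with wild-type KDM5A. The intervals of alpha 2 and alpha 4 overlapped with the empty vector (10.1 to 14.4 and 10.2 to 14.5 RPM), so that their order there was not resolved. Alpha 5, at chr5:140383399-140384309, lay 1.35 kb after alpha 4 and had 2.52, 2.12 and 2.02 RPM. Alpha 1, at chr5:140248707-140249036 and alone in the middle of the window, had 0.840, 0.369 and 0.606 RPM, which were 9, 4 and 6 reads.

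Gamma held 1 region of a promoter's usual width and 5 that were weak. Gamma 2, at chr5:140792327-140793581 and 1255 bp wide, had 12.6 RPM in the empty vector library, 13.9 RPM in the wild-type KDM5A library and 11.5 RPM in the mutant KDM5A library. It carried 70.7%, 80.7% and 82.0% of the gamma sum. As in alpha 4, the wild-type KDM5A library was the highest of the 3, and all 3 intervals overlapped (10.6 to 14.9, 11.8 to 16.3 and 9.49 to 13.8 RPM).

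The other 5 gamma regions were 188 to 609 bp wide. Gamma 5, at chr5:140855617-140856225, had 2.43, 1.198 and 0.908 RPM, or 26, 13 and 9 reads, in the order empty vector, wild-type and mutant KDM5A. Gamma 4, at chr5:140800666-140801254, had 1.49, 1.11 and 0.606 RPM, or 16, 12 and 6 reads. Both were highest with the empty vector and lowest with the mutant. Gamma 1, at chr5:140739592-140739872, had 1.12 RPM (12 reads), 0.184 RPM (2 reads) and 0.101 RPM (1 read). Gamma 3, at chr5:140797237-140797446, had 1 read in the empty vector library, 8 in the wild-type library and 2 in the mutant library. Gamma 6, at chr5:140893516-140893703 and with 188 bp the narrowest of the 12, had 1, 1 and 7 reads, and at 1.297 kb from the window's end it was nearest to an edge. No region crossed one. The weak regions thus did not share 1 pattern across the libraries.

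The beta window of 205 kb had 1 listed region, at chr5:140593486-140593706, 221 bp wide, with 7 reads in the empty vector library, 10 in the wild-type library and 0 in the mutant library. The 0 allows up to 0.303 RPM (3 reads). Set at that limit, the mutant value was 2.16-fold below the empty vector value and 3.04-fold below the wild-type value. Intervals that also carry the counting error of the 7 and 10 reads begin at 1.33-fold and 2.05-fold lower. They do not allow for a region being listed only through the libraries where it had reads. No region was listed for 173 kb before it and 106 kb after it, lengths that 10.96% and 19.3% of all 30816 gaps between neighbouring regions reach or pass, with a median gap of 29.8 kb. The stretch without a region that runs into alpha measured 143 kb, which 13.7% of gaps reach.

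**Figure D2:**
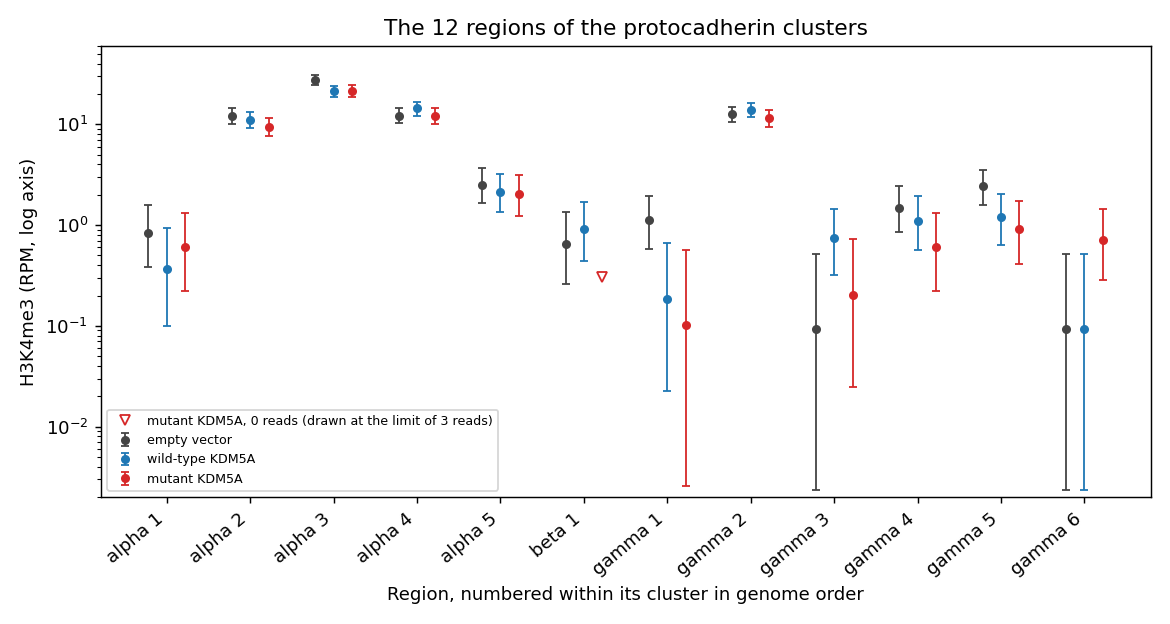
H3K4me3 in RPM (log axis) of the 12 regions, numbered within each cluster in genome order, in the 3 libraries, with points for the value and bars for the exact Poisson 95% interval. The open triangle stands for 0 reads, drawn at the limit of 3 reads; alpha 2, 3 and 4 and gamma 2 lie near or above 10 RPM, and the other 8 lie below 3 RPM.

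The 12 regions split into 4 of at least 1233 bp with means of 10.9 to 23.5 RPM and 8 of at most 911 bp with means of 0.297 to 2.22 RPM. None lay between. The 4 were at percentiles 59.3 to 66.5 of mean RPM, and the other 8 at percentiles 0.551 to 36.0. Of the 12, 1 (8.33%) reached 20 RPM, against 35.3% of all regions, and 8 (66.7%) were under 5 RPM, against 50.95%. Reads outside the listed regions averaged 0.110 RPM per kb with the empty vector, over the 3005 Mb from each chromosome's start to its last region less the regions. Alpha 1 had 2.55 RPM per kb of its width in that library and gamma 5 had 3.99 RPM per kb. Gamma 6 had 0.497 and gamma 3 0.444 RPM per kb there, each from 1 read, too few to set them apart. In the wild-type library, with 0.131 RPM per kb outside regions, gamma 3 had 3.51 RPM per kb from 8 reads. In the mutant library, with 0.143 RPM per kb outside regions, gamma 6 had 3.76 RPM per kb from 7 reads and the beta region had 0 reads. Gamma 3 and gamma 6 may each be listed only through the library where they were high.

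The megabase on each side was far more densely marked. It held 32 listed regions before alpha, at chr5:139160000-140159999, and 32 after gamma, at chr5:140895001-141895000, 3.20 per 100 kb on either side. Alpha had 2.13 regions per 100 kb, beta 0.488 and gamma 3.16. Gamma thus had nearly as many regions per length as the flanks, but weaker ones. Regions covered 5.44% and 4.97% of the flanks, 2.42% of alpha, 1.65% of gamma and 0.108% of beta. The flanks were themselves rich in regions. Over all chromosomes the 30840 regions covered 49415 kb, with 3005 Mb outside them. In share covered, alpha and gamma were not below that average, while beta was. By mean RPM over the 3 libraries the strongest before alpha was chr5:139778800-139783333, with 121, 108 and 100.03 RPM in the empty vector, wild-type and mutant libraries. It was followed by chr5:139554008-139556718 (62.3, 60.1 and 55.7 RPM) and chr5:139486501-139489165 (61.7, 55.7 and 54.7 RPM). By the same measure the strongest after gamma was chr5:141701697-141708423, with 137, 124 and 119 RPM. It was followed by chr5:141254940-141259037 (111, 101 and 85.0 RPM) and chr5:141015088-141018051 (83.9, 74.5 and 71.5 RPM). All 6 stood far above alpha 3, and all 6 were highest with the empty vector and lowest with the mutant. Most regions of 20 RPM or more went the same way. Of these, 91.4% were lower with wild-type KDM5A than with the empty vector, and 98.0% were lower with the mutant. With the mutant 79.6% were lower than with wild-type KDM5A.

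Per kb of window, signal with the empty vector was 0.774 RPM in the flanks, 0.236 RPM in alpha, 0.0938 RPM in gamma and 0.00319 RPM in beta. Alpha was 3.28-fold lower than the flanks (3.02 to 3.57), gamma 8.25-fold lower (7.15 to 9.57) and beta 243-fold lower (118 to 604). With wild-type KDM5A the folds were 3.35 (3.08 to 3.66), 7.75 (6.71 to 8.995) and 156 (85.0 to 326). With mutant KDM5A they were 3.34 for alpha (3.04 to 3.67) and 8.77 for gamma (7.42 to 10.4), and beta, at 0 reads, was 439-fold lower when set at 3 reads, with an interval that begins at 357-fold. The deficit against the flanks was smaller within the regions themselves. Per kb of listed region, alpha had 9.74 RPM, gamma 5.69 RPM and the flanks 14.9 RPM with the empty vector, 1.53-fold and 2.61-fold less than the flanks. All regions of the table together had 13.6 RPM per kb in that library.

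The gaps between the clusters each held 1 region. In the 30 kb between alpha and beta it was chr5:140419291-140420820, with 9.61, 8.66 and 9.29 RPM, below alpha 2 in each library. In the 75 kb between beta and gamma it was chr5:140699273-140701280, with 37.9, 32.8 and 33.2 RPM, above every region inside the windows. Windows wider by 10 kb on each side took the first into beta, which then summed to 10.3, 9.58 and 9.29 RPM, and the second, with 1 region of the far flank, into gamma, which then summed to 58.9, 54.2 and 50.6 RPM. How far beta and gamma lay below the flanks thus depends on where the windows are set. In the wider window beta had a wild-type to empty vector ratio of 0.933, against 1.41 given below.

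The first comparison asks whether H3K4me3 at the clusters changed when wild-type KDM5A was put back. The alpha sum was 11.3% lower than with the empty vector (ratio 0.887, 0.788 to 0.999) and the gamma sum 3.35% lower (0.966, 0.786 to 1.19). The flanks were 9.27% lower (0.907, 0.888 to 0.928) and the sum of all regions 9.46% lower. Set against the flanks, alpha had a ratio of 0.978 (0.867 to 1.10) and gamma 1.07 (0.865 to 1.31). Neither cluster therefore differed from its flanks beyond counting error. With libraries scaled to equal sums over all regions the ratio to the empty vector was 0.980 for alpha and 1.07 for gamma. The 7 and 10 reads of beta gave a ratio of 1.41 with an interval of 0.485 to 4.37, too wide to place it.

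Among the 4 stronger regions alpha 3 was the 1 whose interval did not reach a ratio of 1, with a ratio of 0.764 (0.641 to 0.911). That interval includes the ratios of all regions (0.905) and of the flanks (0.907), so alpha 3 was not set apart from the shift they share. Alpha 2 had 0.919 (0.711 to 1.19), gamma 2 had 1.10 (0.870 to 1.40) and alpha 4 had 1.18 (0.926 to 1.49). On the log2 scale with a pseudocount of 0.7 RPM, which shrinks the change of weak regions, these were −0.38, −0.12, 0.14 and 0.22. The median over the 12 regions was −0.15, against −0.11 over all regions. At least 1.5-fold lower on that scale were 2 of 12, against 6.53% of all regions, and 1 was higher, against 6.23%. Setting the median ratio to 1 over regions at or above the median level moved the median of all regions to 0.033 and left 1 lower, against 4.08% of all, and 1 higher, against 9.70%. With a pseudocount of 3.5 RPM none of the 12 passed in any of the 3 comparisons. The regions past the threshold at 0.7 RPM were gamma 1 (6.08-fold lower without the pseudocount, 1.35 to 55.9), gamma 5 (2.03-fold lower, 1.00 to 4.29) and, higher, gamma 3, with 8 reads against 1 (ratio 7.90, 1.06 to 350). All of them were under 5 RPM, and of all 15714 regions under 5 RPM 11.9% were lower and 11.9% higher. Of the 30 flank regions under 5 RPM 0 were lower and 4 were higher. The weak cluster regions named here and below were chosen after seeing their values. How regions were called is not given, so a weak region may be listed only through the library where it was high. Its fold and interval take no account of that and do not establish a change.

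The second comparison sets mutant KDM5A against the empty vector. Here alpha, gamma and both flanks were lower. The alpha sum was 17.7% lower than with the empty vector (ratio 0.823, 0.727 to 0.932), the gamma sum 21.3% lower (0.787, 0.628 to 0.984), the flanks 16.3% lower (0.837, 0.818 to 0.856) and all regions 15.1% lower. Against the flanks alpha had a ratio of 0.983 (0.866 to 1.12) and gamma 0.940 (0.749 to 1.18). When the libraries were scaled to equal sums over all regions, the ratios were 0.969 for alpha and 0.926 for gamma, since that scaling takes out the shift the regions share.

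All 4 stronger regions had a ratio below 1, at 0.774 for alpha 2 (0.586 to 1.02), 0.776 for alpha 3 (0.647 to 0.928), 0.913 for gamma 2 (0.705 to 1.18) and 0.991 for alpha 4 (0.767 to 1.28). Alpha 4 thus had nearly the level of the empty vector library. The median log2 ratio of the 12 regions was −0.30, against −0.18 over all regions. At least 1.5-fold lower were 4 of 12, against 8.15% of all regions, and 1 was higher, against 6.61%. With the median ratio set to 1, which moved the median of all regions to 0.049, these were 3, against 3.56%, and 1, against 13.1%. All 5 were among the 8 weak regions, and of all 15714 regions under 5 RPM 13.9% were lower and 12.7% higher. The 4 were the beta region, gamma 1 (11.1-fold lower, 1.64 to 474), gamma 5 (2.67-fold lower, 1.21 to 6.48) and gamma 4 (2.47-fold lower, 0.917 to 7.69). Gamma 6 was the higher one, with 7 reads against 1 (ratio 7.57, 0.973 to 341). Of the 30 weak regions of the flanks 1 was lower and 5 were higher. No weak region of the clusters had more than 27 reads in any library.

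**Figure D3:**
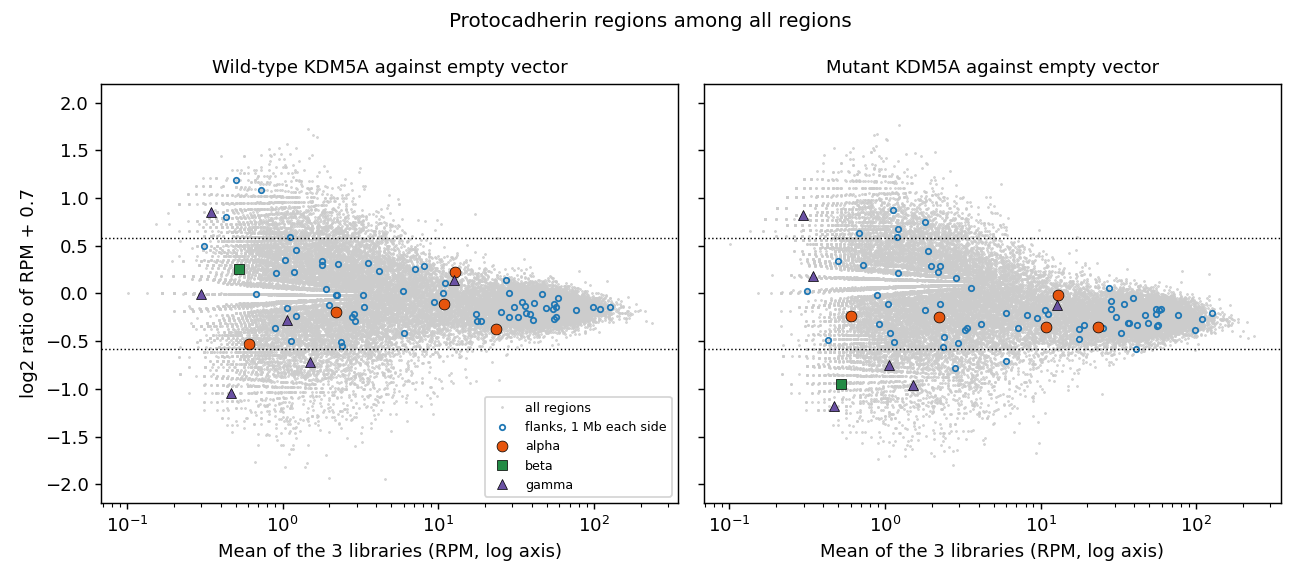
The log2 ratio of RPM plus 0.7 to the empty vector against the mean RPM of the 3 libraries (log axis), for all regions (grey), the 64 flank regions (open circles) and the 12 cluster regions (filled), with dotted lines at 1.5-fold; 20 regions in each panel lie beyond the vertical axis. The cluster regions past a dotted line all have means under 2 RPM, where the grey points spread widely too.

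The third comparison sets mutant against wild-type KDM5A. The alpha sum was 7.27% lower with the mutant (ratio 0.927, 0.816 to 1.05), the gamma sum 18.6% lower (0.814, 0.649 to 1.02) and the flanks 7.77% lower (0.922, 0.901 to 0.944). Both cluster intervals include 1, and relative to the flanks the ratios were 1.01 for alpha (0.883 to 1.14) and 0.883 for gamma (0.703 to 1.11). Alpha 3 was nearly equal, at 1.01 (0.838 to 1.23), while alpha 2, alpha 4 and gamma 2 had 0.842 (0.636 to 1.11), 0.843 (0.659 to 1.08) and 0.827 (0.643 to 1.06). The median log2 ratio of the 12 regions was −0.23, against −0.077 over all regions. At least 1.5-fold lower were 2 of 12, the beta region and gamma 3, against 5.45% of all regions, and 1 was higher, gamma 6, against 5.19%. All of them were under 5 RPM, and of all regions under 5 RPM 10.2% were lower and 10.1% higher. Of the 30 flank regions under 5 RPM 3 were lower and 1 was higher. With the median ratio set to 1 the counts among the 12 were 1 lower, against 3.59% of all regions, and 1 higher, against 7.06%.

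**Figure D4:**
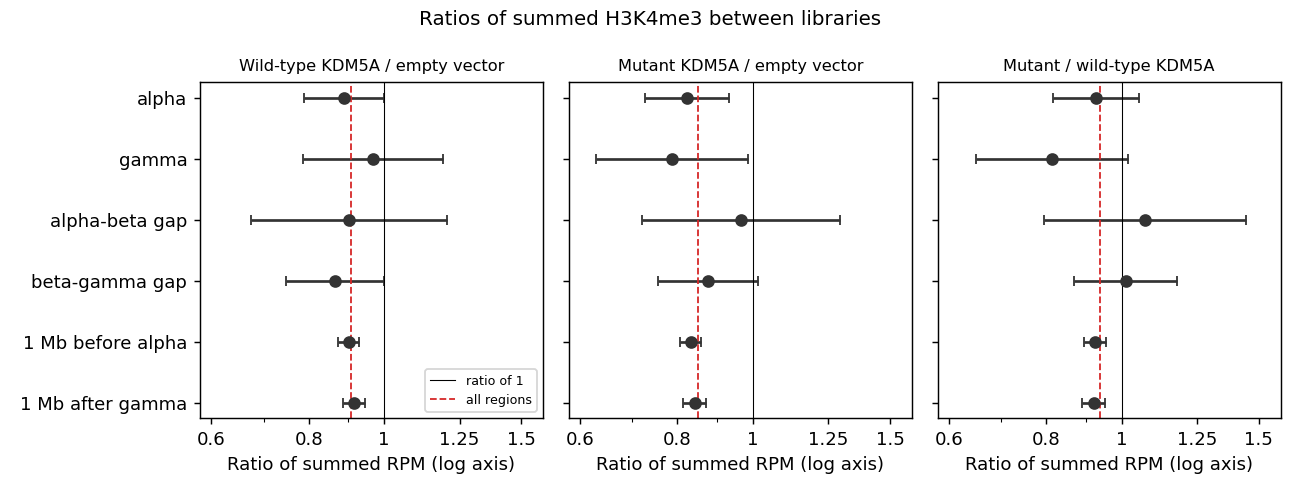
Ratios of summed RPM between libraries (points, log axis) with exact conditional 95% intervals for alpha, gamma, the gaps between clusters and the flanks, in 3 panels for the 3 comparisons, with a solid line at 1 and a dashed line at the ratio of all regions. Each interval of alpha and gamma includes the dashed line; beta is left out because its ratios rest on 7, 10 and 0 reads.

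The response of gamma was also set directly against that of alpha. The ratio of the gamma ratio to the alpha ratio was 1.09 in the first comparison (0.857 to 1.38), 0.956 in the second (0.738 to 1.24) and 0.878 in the third (0.676 to 1.14). A difference between these clusters was not detectable at this depth, which is 594, 534 and 452 reads for alpha and 191, 187 and 139 for gamma. The comparisons share libraries, so the first and second rest on the same empty vector library.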

How the data were processed

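The deposited table gives the RPM of each region in the 3 H3K4me3 libraries, a unit the authors computed. The submitters' processing notes name hg19 as the build and, among the tools, HOMER, MACS2, MACS, deepTools 3.5.6 and Bowtie2 2.5.4. How regions were called and reads were counted is not given in the sources used here. "H3K4me4" in the header of 1 column was read as H3K4me3. Input and IgG were not used here, and nothing was subtracted as background. Since RPM fixes each library's total, it cannot tell a loss of mark everywhere from a lower share of reads on target.

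All values were whole multiples of 1 step per library (0.0933, 0.0921 and 0.101 RPM for the empty vector, wild-type and mutant KDM5A), within 0.02 reads. Taking 1 step as 1 read gave the reads of each region and, from the same step, the total reads of each library. The reads so inferred gave the intervals, exact Poisson for levels and exact conditional for ratios, although PCR copies are not independent. No count model was fitted with 1 library per group. A region belonged to a window if 1 base overlapped. The rule for named regions took the 5 strongest per cluster, the extreme ratios among members above the median mean of all regions (4.70 RPM), the widest and narrowest, and the 3 strongest per flank. All 12 members are given. Members, lists and rules were chosen with earlier results of these data known. The procedure was tested on simulated independent Poisson counts. These hold no PCR copies and no selection of regions, so the test could not check the intervals for either. Software was scipy 1.17.1, pandas 2.3.3, numpy 2.4.6, statsmodels 0.14.6 and Python 3.11.15.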

Additional observations from a re-analysis of the deposited data

How the results depend on the processing

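Scaling to a median ratio of 1 gave ratios to the empty vector of 0.981 (wild-type KDM5A) and 0.972 (mutant KDM5A) for alpha and 1.07 and 0.929 for gamma. Equal sums gave 0.980 and 0.969 for alpha and 1.07 and 0.926 for gamma. Placing regions by midpoint changed no sum, and windows wider by 10 kb gave 0.920 and 0.859 for gamma and 0.933 for beta with wild-type KDM5A in place of 1.41. The median log2 ratio of the members moved to 0.010 for wild-type KDM5A over the 4 regions at or above the median and to −0.062 for mutant KDM5A with scaling to a median ratio of 1.

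Counts past 1.5-fold were 0 in both directions in all 3 comparisons with a pseudocount of 3.5 RPM and over the regions at or above the median. A 2-fold threshold left 1 lower and 0 higher in each comparison. Scaling to a median ratio of 1 left 1 lower for wild-type KDM5A and 1 for mutant against wild-type, a pseudocount of 0.07 RPM gave 2 higher for mutant KDM5A against the empty vector and 2 against wild-type, and removal of a lowess trend gave 0 higher for mutant KDM5A.

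With flanks of 0.5 Mb alpha was 4.45, 4.47 and 4.47 times lower than the flanks (empty vector, wild-type, mutant) and gamma 11.2, 10.3 and 11.8 times lower. With flanks of 2 Mb these were 2.49, 2.58 and 2.56 for alpha and 6.25, 5.95 and 6.73 for gamma. No paired analysis was possible because each group had 1 library. Of 119 alternative values 80 stayed within the main interval or, for counts, within 1.5 times the count. For medians the limit was a tolerance taken from the interval of the members' summed ratio. Some of the 80 could hardly move, such as sums with regions placed by midpoint, so the total is no measure of robustness. Depth limits the 8 weak regions, where 0 to 27 reads decide each value.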
